A study of Mus musculus with 12 samples.

Results

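Cytosolic and mitochondrial chaperones were followed in the hypothalamus of obese mice through 88 genes, of 19938 genes with a value on the array. They were chosen by symbol: the heat shock protein families named Hspa, Hspb, Hsph, Hsp90, Hspd1 and Hspe1, the J-domain proteins named Dnaj, the Cct subunits and Bag1 to Bag6, together with Hsf1, Stip1, Ahsa1, Chordc1, Fkbp4, Cryab and Tcp1. Chaperones of the endoplasmic reticulum such as Hspa5 and Hsp90b1 were kept out. Of 91 protein-coding symbols in RefSeq that fit these names, 3 (Hsf1, Hsp90ab1 and Hspa1b) had no probe set assigned to that symbol alone and were not analysed here. The names caught more than the label says: Dnajc1 and Dnajc10 act in the endoplasmic reticulum, and Hspb11 is a subunit of the intraflagellar transport machinery.

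Hypothalami of male C57BL/6J mice were compared in 3 groups of 4 arrays each, labelled as biological replicates. All mice had been fed, from the age of 3 weeks and over 20 weeks, a high fat diet (45%), were 23 weeks old, and had received DMSO by intraperitoneal injection for 4 days. Celastrol (100 µg/kg), withaferin A (2 mg/kg) or DMSO alone was then injected daily for 4 days. Both compounds are plant products under which obese mice eat less and lose weight, and the doses differ, so a difference between them is one between these doses as well. The 12 arrays had median log2 signals between 6.89 and 6.98 and pairwise correlations between 0.981 and 0.994, and 0 pairs were identical. Of the markers fixed for the tissue check, 10 of 10 neuronal and 13 of 14 hypothalamic genes were bright enough to be tested. Pituitary markers (6 of 9 tested) stood apart on celastrol replicate 2, where their mean lay 2.09 log2 units above the DMSO mean. The other celastrol arrays lay at 0.43, 0.40 and 0.39, above the DMSO arrays, which ranged from -0.20 to 0.16. The withaferin A arrays ranged from 0.07 to 0.42. With either compound 0 of the 6 markers were below 0 and 0 passed the test. Thalamus markers (9 of 9 tested) varied within each group, from -0.10 to 0.81 with celastrol, from -0.26 to 0.60 with withaferin A and from -0.44 to 0.60 with DMSO in the same unit. Hypothalamic markers were below 0 relative to DMSO in 11 of 13 genes with each compound; Oxt, which encodes oxytocin, fell with celastrol, at -0.40 (adjusted p = 0.0179). The part of these differences between arrays in the chaperone values was not tested. With celastrol replicate 2 left out, 0 chaperone genes passed the test in the 3 comparisons, as with it. Because 0 passed already, this count cannot show whether that array affects the chaperone values.

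Chaperones bind unfolded or partly folded proteins and pass them between one another. J-domain proteins deliver clients to HSP70 and start its ATP cycle, exchange factors such as HSP110 and the BAG proteins end it, and HSP90 with its cochaperones matures kinases and steroid hormone receptors. The CCT ring folds actin and tubulin, HSP60 and HSP10 form the folding chamber of mitochondria, and small heat shock proteins hold aggregating proteins. Transcription of many of these genes is raised in stressed cells by the heat shock factor HSF1, and both celastrol and withaferin A are known to activate this heat shock response in cultured cells. How the chaperone transcripts stood in the hypothalamus after these doses is the question the comparisons address.

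HSF1 binds DNA in which the short unit GAA and its reverse complement TTC alternate, so promoters were searched for such runs. A stretch of 2 units was GAANNTTC or TTCNNGAA, and a stretch of 3 units continued it by NN and the other unit, GAA after TTC or TTC after GAA. N is any base, the reverse complement of each stretch is again one of these so that both strands are covered, and a stretch of 3 contains 2 stretches of 2. In the 250 bases before each RefSeq gene start (build GRCm38.p6), 72 of the 88 members were in the promoter table. The stretch of 3 units stood in 3 of these 72 (4.17%), namely Dnajb6, Hspd1 and Hspe1, against 0.514% of 27025 genes in the table. The stretch of 2 units stood in 17 (23.6%), against 14.5% of all genes. Among the 18 heat-inducible members named below, 15 were in the table, and 8 of these (53.3%) held the stretch of 2 units. A match is a description of the letters and not a binding site.
The 4 sequences printed next belong to Hspa1a, the classic stress-inducible HSP70, and to 4 further heat-inducible members, Hspe1, Hspd1, Dnajb4 and Chordc1, whose withaferin A arrays lay below their celastrol arrays without passing the test. They show both kinds of match and a promoter with none, each 5′ to 3′ on the strand of the gene named first, with matches in capitals. Hspe1 and Hspd1 lie head to head on chromosome 1, and the 215 bases chr1:55087933-55088147 (+) between their starts hold 1 run of 18 bases with 2 overlapping stretches of 3 units, which begins 89 bases before the Hspe1 start and 144 bases before that of Hspd1. Hspa1a (chr17:34972157-34972406, −) has 1 stretch of 2 units 104 bases before its start, and Dnajb4 (chr3:152193846-152194095, −) has 1 at 14 bases before 1 of its starts. In Chordc1 (chr9:18292017-18292266, +) these letters did not occur.
Hspe1 and Hspd1: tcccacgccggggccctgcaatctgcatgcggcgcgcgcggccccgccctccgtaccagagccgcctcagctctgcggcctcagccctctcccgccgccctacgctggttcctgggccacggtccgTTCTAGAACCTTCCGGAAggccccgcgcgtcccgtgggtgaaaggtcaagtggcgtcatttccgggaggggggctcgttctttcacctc
Hspa1a: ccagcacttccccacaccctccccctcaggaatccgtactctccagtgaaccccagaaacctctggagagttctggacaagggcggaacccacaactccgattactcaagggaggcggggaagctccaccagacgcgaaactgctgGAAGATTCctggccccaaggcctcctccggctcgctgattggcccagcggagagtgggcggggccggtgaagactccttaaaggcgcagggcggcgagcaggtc
Dnajb4: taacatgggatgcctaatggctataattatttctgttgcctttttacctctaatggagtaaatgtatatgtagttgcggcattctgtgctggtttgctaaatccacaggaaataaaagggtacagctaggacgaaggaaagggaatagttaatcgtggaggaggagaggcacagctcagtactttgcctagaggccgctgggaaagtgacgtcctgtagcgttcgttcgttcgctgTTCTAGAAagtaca
Chordc1: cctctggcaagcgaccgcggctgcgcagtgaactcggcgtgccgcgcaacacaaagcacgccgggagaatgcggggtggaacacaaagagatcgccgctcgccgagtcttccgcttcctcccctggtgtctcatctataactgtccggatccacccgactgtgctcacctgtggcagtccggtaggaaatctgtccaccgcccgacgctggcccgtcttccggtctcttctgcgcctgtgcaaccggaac

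Of the 88 members, 80 were bright enough to be tested; Cct6b, Cct8l1, Dnajb3, Dnajb7, Dnajc22, Dnajc5b, Dnajc5g and Hspa1l were dimmer than the limit of 5.81 log2 units and were left out. In limma's fit across 14953 genes, adjusted by Benjamini-Hochberg over all of them, 0 of 80 chaperone genes passed an adjusted p of 0.05 for celastrol versus DMSO, where 0.769% of all genes passed. Withaferin A versus DMSO gave 0 of 80 beside 0.0% of all genes, and withaferin A versus celastrol gave 0 of 80 beside 0.0468%. Before adjustment, 8 members had a p under 0.05 with celastrol, beside 10.4% of all genes, and 11 with withaferin A, beside 15.7%. Between the compounds 11 members had such a p, beside 16.1% of all genes. These shares of the members were near or below the background. By direction, 4 members were higher and 4 lower with celastrol, beside 4.19% and 6.25% of all genes, and 1 was higher and 10 lower with withaferin A, beside 6.62% and 9.11%. Withaferin A was higher than celastrol in 3 members and lower in 8, beside 8.67% and 7.46% of all genes. Of the 80 members, 67 were among the 9969 genes in the brighter 50% of the array. Of these 9969 genes, 370 were higher and 693 lower with celastrol, and 314 higher and 1206 lower with withaferin A. Between the compounds 550 of them were higher with withaferin A and 924 lower. Lower values thus outnumbered higher ones among bright genes at large. In log2 units, the tested members lay between -0.24 (Bag2) and 0.25 (Dnajc21) with celastrol and between -0.32 (Chordc1) and 0.27 (Hspb2) with withaferin A, each relative to DMSO. The upper 95% bounds of the 80 members reached at most 1.36-fold with celastrol (Dnajc28) and 1.39-fold with withaferin A (Hspb2).

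**Figure D1:**
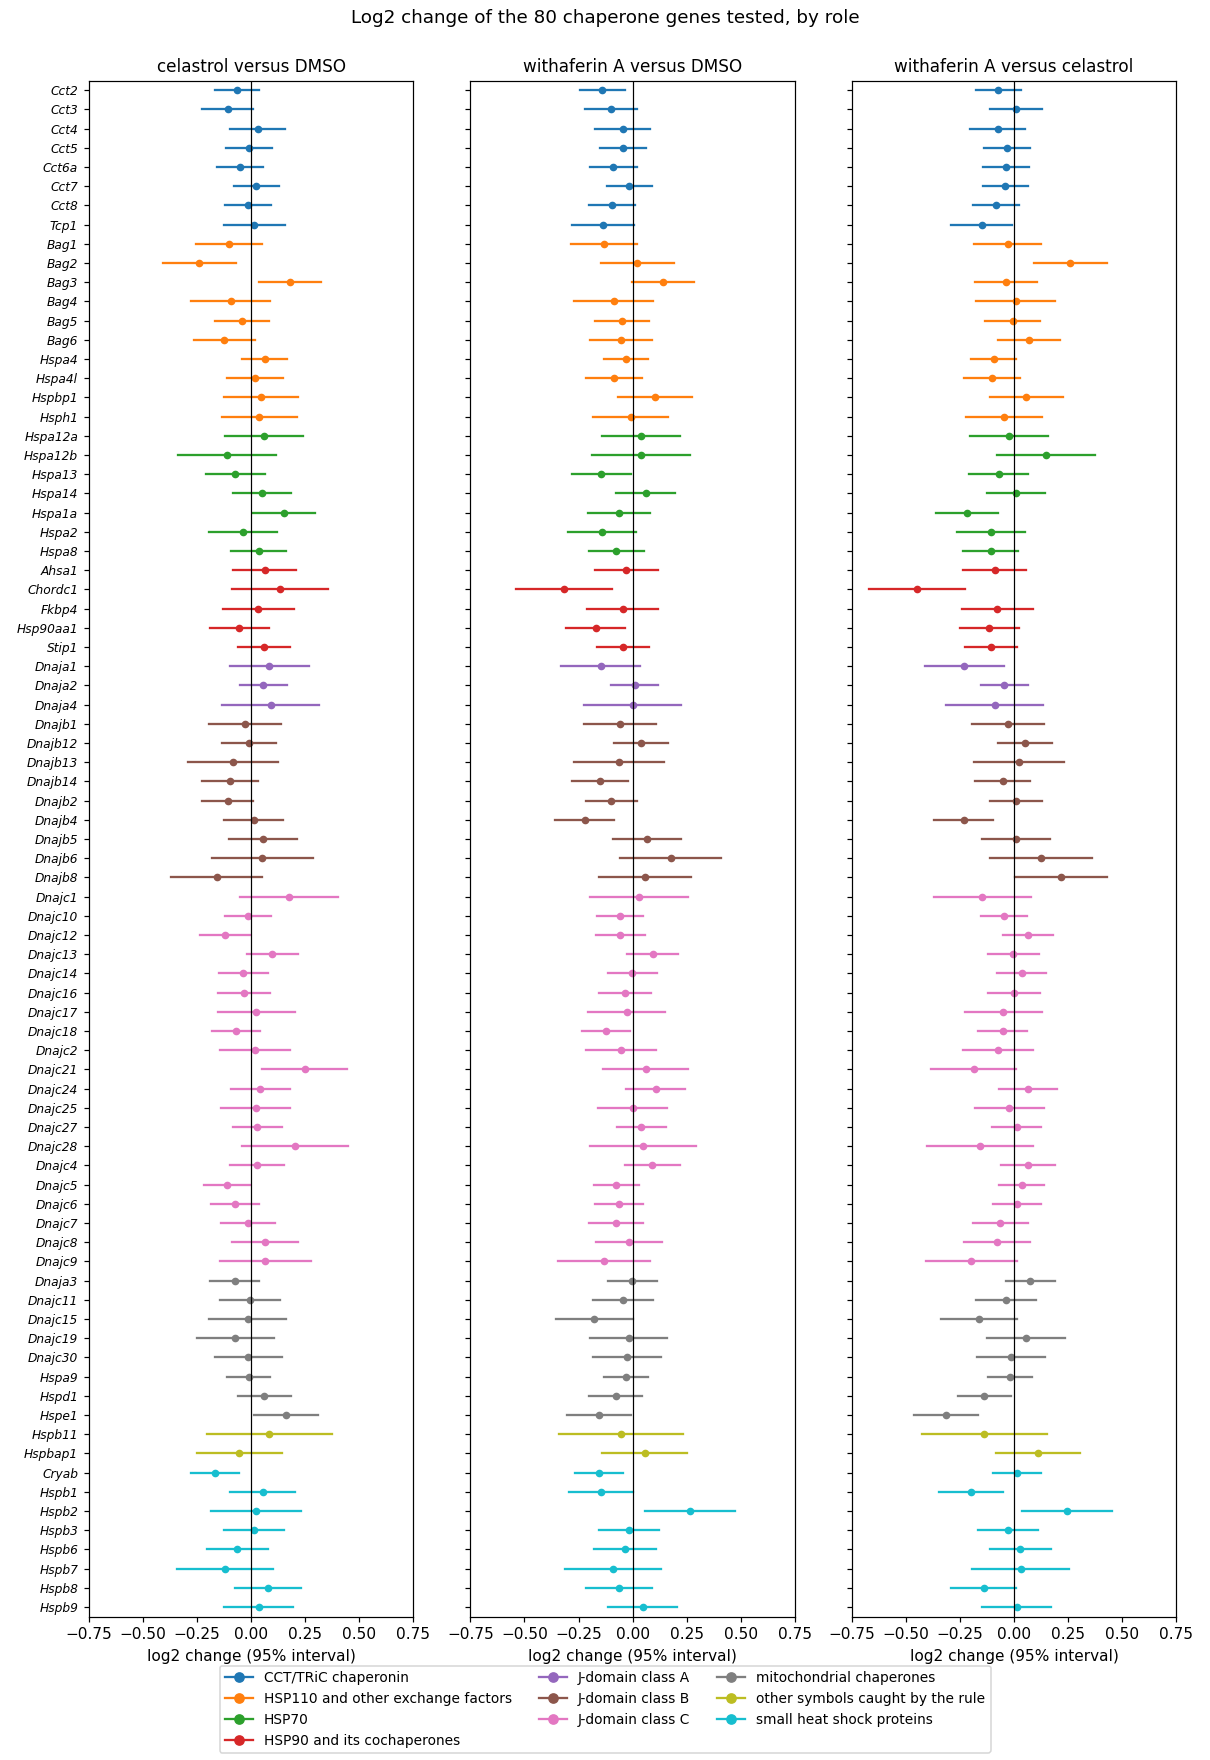
Log2 change of each of the 80 chaperone genes tested, in 3 panels for celastrol versus DMSO, withaferin A versus DMSO and withaferin A versus celastrol; points are limma estimates, bars their 95% intervals, colours the roles, and 4 arrays stand in each group. Most intervals cross 0, and Chordc1 has the lowest value against DMSO and against celastrol, -0.32 and -0.45.

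The direction of the values differed between the compounds. With celastrol, 42 of 80 members (52.5%) were above 0, against 42.6% of all genes, and the members' median log2 change was 0.01, against -0.02 for all genes. With withaferin A, 59 of 80 (73.8%) were below 0, against 51.5% of all genes, and the median was -0.05, against -0.0041 for all genes. Of the 9969 genes in the brighter 50% of the array, 61.7% were below 0 with withaferin A, with a median of -0.029. Between the compounds 52 of 80 (65.0%) were lower with withaferin A than with celastrol, against 45.1% of all genes and 53.0% of the brighter 50%. The 3 comparisons share arrays, so their values are not independent of each other. The lean with withaferin A depended on the scaling of the arrays. After a renewed quantile normalization 35 of 80 members were above 0, not 21, with a median of -0.013, and 7882 of all genes were above 0, not 7246, with a median of 0.0071. Centring on the array medians moves each gene alike, and with it the median of all genes was -0.05 and that of the members -0.09.

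**Figure D2:**
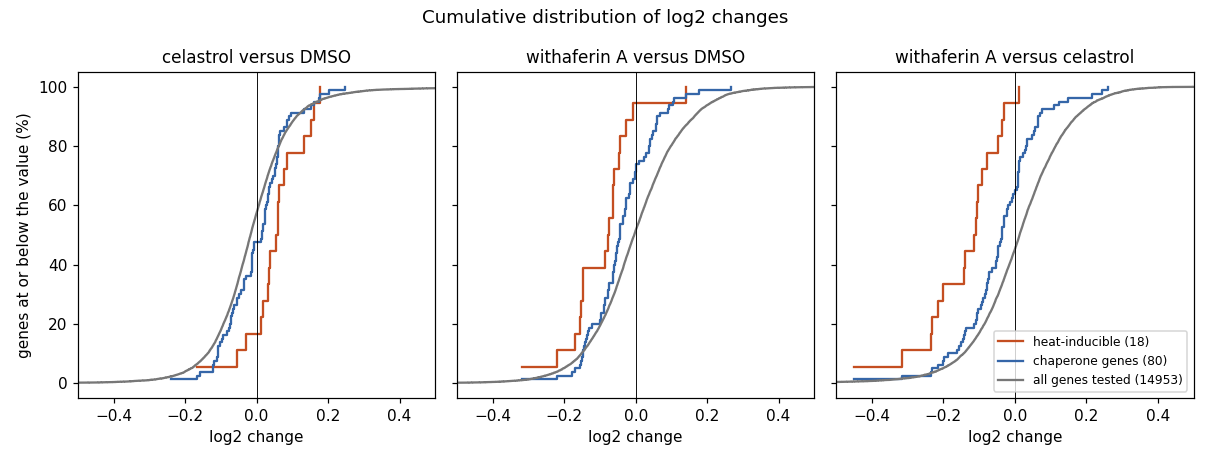
Cumulative distribution of log2 changes for 18 heat-inducible members (orange), the 80 chaperone genes tested (blue) and all 14953 genes tested (grey); the vertical axis is the percentage of genes at or below the value. With withaferin A the heat-inducible curve lies left of the grey curve over most of its range, and with celastrol it lies right of it over most of its range.

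A list of 20 members known to be raised by heat shock held 18 with a tested value: Hsph1, Hspa1a, Hspa8, Hspa4l, Dnaja1, Dnajb1, Dnajb4, Hsp90aa1, Hspb1, Cryab, Hspb8, Bag3, Hspd1, Hspe1, Stip1, Ahsa1, Chordc1 and Fkbp4. None of the 18 passed the test in any of the 3 comparisons. With celastrol 15 of 18 lay above 0 and their median log2 change was 0.06. All 18 were among the brighter 50% of genes, of which 39.6% lay above 0 with celastrol, with a median of -0.02. With withaferin A 17 of 18 lay below 0, with a median of -0.08, Bag3 being the exception. Of the brighter 50% of genes, 61.7% lay below 0 with withaferin A, with a median of -0.029. Between the compounds 17 of 18 were lower with withaferin A than with celastrol, with a median of -0.11, Cryab being the exception. Here 53% of the brighter 50% were lower, with a median of -0.0078. Without celastrol replicate 2, on which the pituitary markers were highest, 14 of 18 lay above 0 with celastrol, with a median of 0.03. Again 17 of 18 were lower with withaferin A than with celastrol. Averaged over the 18 genes and set against the DMSO mean, the celastrol arrays lay at 0.05, 0.10, 0.06 and -0.01, the withaferin A arrays at -0.13, -0.09, -0.06 and -0.11, and the DMSO arrays at 0.05, 0.01, -0.07 and 0.02. The withaferin A arrays were below the 4 celastrol arrays, and 1 of them, replicate 3, lay above the lowest DMSO array, replicate 3. After a renewed quantile normalization 13 of 18 were below 0 with withaferin A, the median being -0.04, and 16 of 18 were lower with withaferin A than with celastrol, the median being -0.05. The 95% interval of no heat-inducible member reached above 1.28-fold with celastrol (Chordc1) or 1.22-fold with withaferin A (Bag3).

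**Figure D3:**
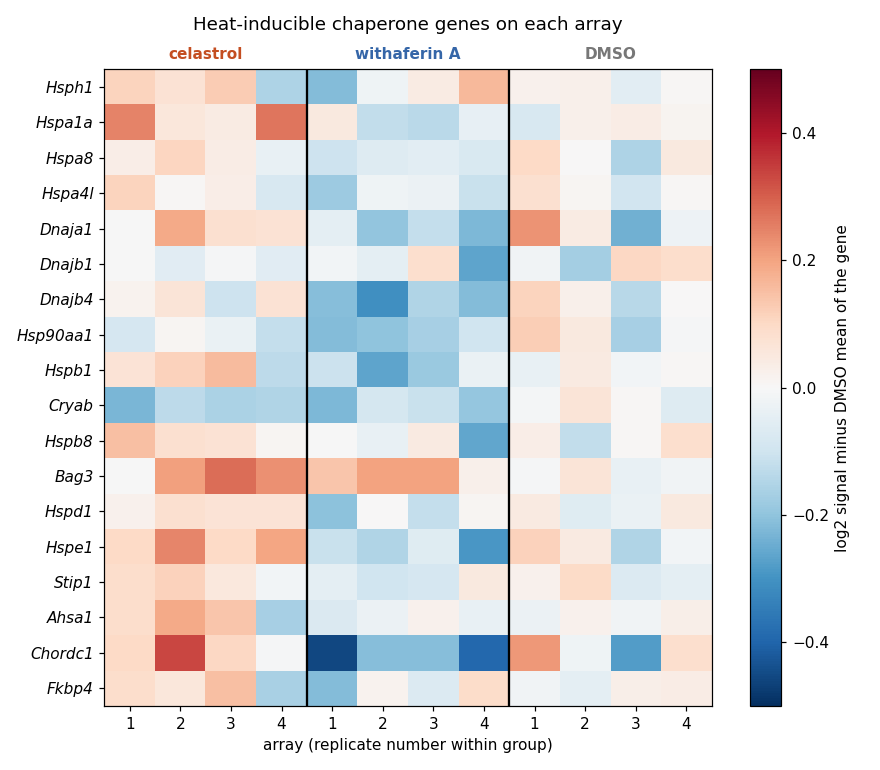
Log2 signal of the 18 heat-inducible members on each of the 12 arrays minus the mean of the DMSO arrays for that gene; columns are arrays by group and replicate number, and colour runs from lower (blue) to higher (red) than the DMSO mean. Chordc1 and Dnajb4 are blue on the 4 withaferin A arrays, Cryab is blue on the celastrol and the withaferin A arrays, and Bag3 is above the DMSO mean on 3 celastrol and 4 withaferin A arrays.

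Among the HSP70 proteins, Hspa1a, the classic stress-inducible HSP70, had log2 signals of 8.52, 8.33, 8.31 and 8.54 with celastrol, 8.32, 8.15, 8.13 and 8.23 with withaferin A, and 8.19, 8.30, 8.31 and 8.29 with DMSO. The 4 celastrol arrays were above the 4 DMSO arrays, narrowly at the nearest pair, while withaferin A overlapped with both groups. Its log2 change was 0.15 ± 0.07 (SE, n = 4 per group) with celastrol, -0.06 ± 0.07 with withaferin A and -0.22 ± 0.07 between withaferin A and celastrol, with adjusted p-values of 0.425, 0.671 and 0.179. A probe set assigned to both Hspa1a and its near-identical copy Hspa1b gave 0.15, -0.01 and -0.16, and the signal of these genes cannot be fully separated. Hspa8, the constitutive cytosolic HSP70, averaged 13.55 ± 0.06 with celastrol, 13.44 ± 0.02 with withaferin A and 13.51 ± 0.11 with DMSO (SD, n = 4 each). Its withaferin A arrays, at 13.41, 13.45, 13.46 and 13.43, lay below the celastrol arrays, at 13.54, 13.62, 13.55 and 13.47, and within the range of the DMSO arrays, a log2 change of -0.07 relative to DMSO and -0.11 relative to celastrol. A further probe set assigned to Hspa8 alone had 13.34, 13.20, 13.21 and 13.14 with withaferin A, 13.50, 13.47, 13.57 and 13.46 with celastrol, and 13.46, 13.38, 13.36 and 13.50 with DMSO. There the withaferin A arrays lay below those of both other groups, at -0.21 relative to DMSO and -0.26 relative to celastrol (adjusted p = 0.241 and 0.220 over the 35556 probe sets), and another probe set gave -0.09 and -0.13. Of the 7 HSP70 genes tested, 4 were above 0 with celastrol and 4 below 0 with withaferin A, and Hspa13, a microsomal HSP70-like protein, had -0.14 with withaferin A (adjusted p = 0.291).

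Exchange factors that release clients from HSP70 moved in no common direction: 5 of 10 were above 0 with celastrol and 7 of 10 below 0 with withaferin A. Hsph1, the stress-inducible HSP110, had 10.67, 10.63, 10.68 and 10.41 with celastrol, 10.34, 10.54, 10.60 and 10.72 with withaferin A, and 10.58, 10.59, 10.51 and 10.56 with DMSO. The groups overlapped, and the log2 changes of 0.04 ± 0.08 with celastrol and -0.01 ± 0.08 with withaferin A were smaller than their errors. Bag3, which joins HSP70 to small heat shock proteins in selective autophagy, was the heat-inducible member with a positive value for both compounds. It had 7.89, 8.10, 8.18 and 8.13 with celastrol, 8.04, 8.10, 8.10 and 7.92 with withaferin A, and 7.89, 7.96, 7.86 and 7.88 with DMSO. All but 1 array of each treated group lay above the DMSO arrays, and the log2 changes were 0.18 ± 0.07 and 0.14 ± 0.07, with adjusted p-values of 0.314 and 0.322. Bag2, an inhibitor of the HSP70-linked ubiquitin ligase CHIP, went the other way with celastrol, at 6.62, 6.71, 6.64 and 6.34, against 6.86, 6.75, 6.95 and 6.70 with DMSO. The 2 groups overlapped in 1 pair of arrays, and the log2 change was -0.24 ± 0.08 (adjusted p = 0.238). With withaferin A Bag2 had 6.83, 6.80, 6.83 and 6.88, above the 4 celastrol arrays, a difference of 0.26 ± 0.08 (adjusted p = 0.179). Bag6, which guides tail-anchored and mislocalized proteins, had -0.12 and -0.05 with celastrol and withaferin A, and Hspbp1, an exchange factor of cytosolic HSP70, had 0.05 and 0.10.

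Chordc1, an HSP90 cochaperone known as morgana, had the lowest value of the members with withaferin A. Its log2 signals were 8.63, 8.87, 8.87 and 8.69 with withaferin A, 9.18, 9.42, 9.19 and 9.08 with celastrol, and 9.30, 9.06, 8.80 and 9.17 with DMSO. The 4 withaferin A arrays lay below the 4 celastrol arrays and overlapped with DMSO through DMSO replicate 3. The log2 change was -0.45 ± 0.10 for withaferin A versus celastrol (adjusted p = 0.112, between 0.0629 and 0.282 over the alternatives tried) and -0.32 ± 0.10 for withaferin A versus DMSO (0.204). Without DMSO replicate 3 the second value was -0.41 (0.0524). Hsp90aa1, the inducible cytosolic HSP90, had 12.28, 12.30, 12.33 and 12.40 with withaferin A, 12.42, 12.51, 12.46 and 12.38 with celastrol, and 12.62, 12.55, 12.33 and 12.49 with DMSO. Withaferin A overlapped with both groups, at -0.17 ± 0.06 relative to DMSO (adjusted p = 0.247), and its 2 further probe sets gave -0.17 and -0.27. Stip1, the adaptor between HSP70 and HSP90, Ahsa1, which activates the HSP90 ATPase, and Fkbp4, an immunophilin of steroid receptor complexes, had -0.05, -0.03 and -0.04 with withaferin A and 0.06, 0.06 and 0.03 with celastrol. The 5 members of this group were below 0 with withaferin A, beside 61.7% of the brighter 50% of genes, and 4 of 5 were above 0 with celastrol. After a renewed quantile normalization Stip1 had 0.04 and Ahsa1 0.03 with withaferin A. Fkbp4 had 0.01 without withaferin A replicate 1. Chordc1 and Hsp90aa1 stayed below 0 with withaferin A under every alternative.

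**Figure D4:**
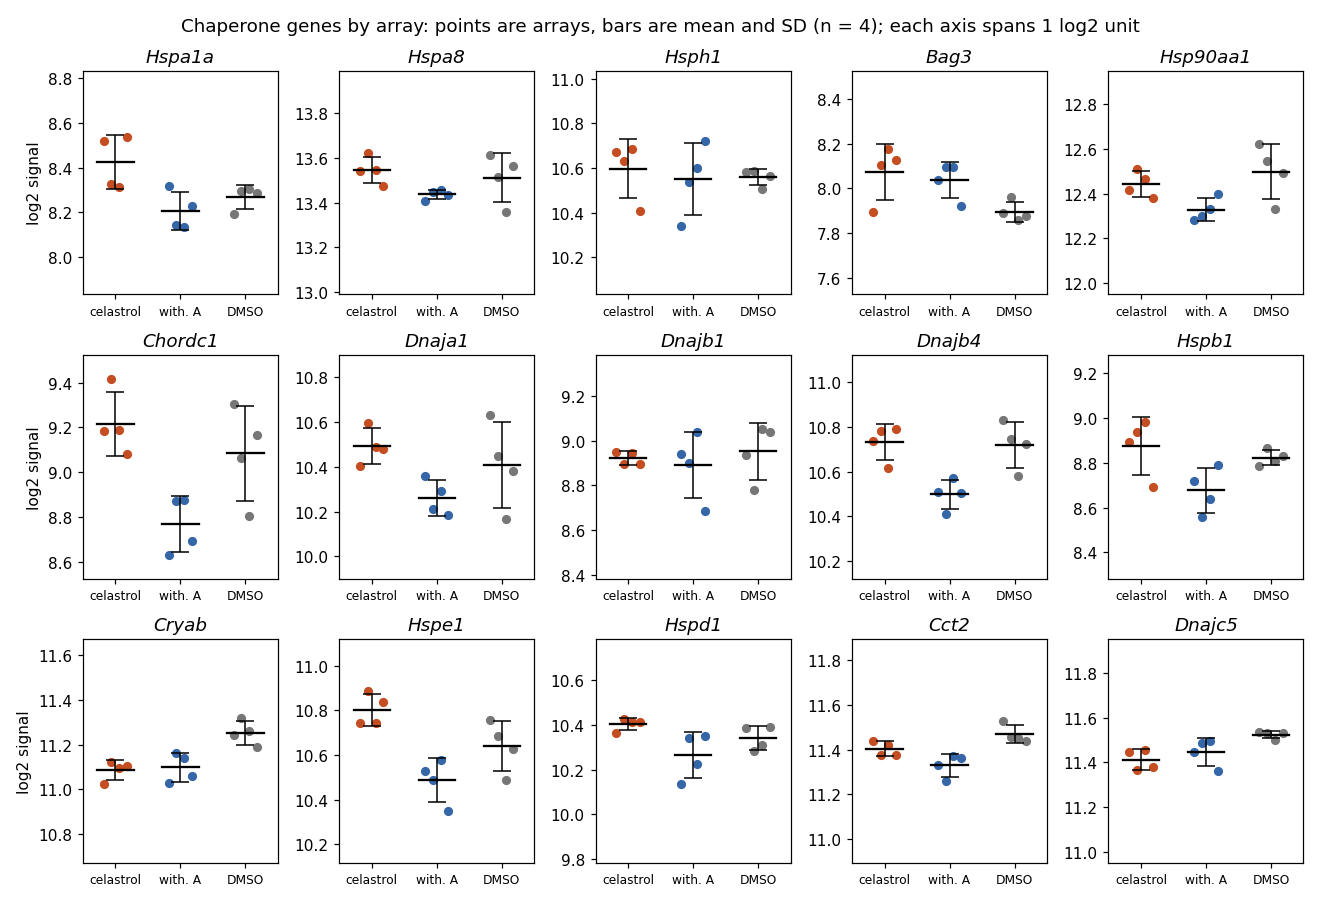
Log2 signal of 15 chaperone genes on each array, by group (celastrol, withaferin A, DMSO); points are arrays, bars the mean and SD of 4 arrays, and each vertical axis spans 1 log2 unit. Withaferin A arrays lie below the celastrol arrays for Chordc1, Dnajb4, Dnaja1, Hspe1, Hspd1, Hspa8 and Cct2. Cryab, Cct2 and Dnajc5 are lower in both treated groups than with DMSO.

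J-domain proteins not listed as mitochondrial made up 3 tested members of class A, 9 of class B and 20 of class C. Dnajb4, a class B partner of HSP70, had the smallest p of the members with withaferin A, at 10.51, 10.41, 10.57 and 10.50, against 10.83, 10.75, 10.58 and 10.72 with DMSO. The groups did not overlap but nearly touched, and the log2 change was -0.22 ± 0.06 (adjusted p = 0.177). With celastrol Dnajb4 had 10.74, 10.78, 10.62 and 10.79, within the DMSO range, and withaferin A versus celastrol gave -0.23 ± 0.06 (0.153). Dnaja1, the main class A partner of HSP70, had 10.36, 10.21, 10.29 and 10.18 with withaferin A, 10.40, 10.60, 10.49 and 10.48 with celastrol, and 10.63, 10.45, 10.17 and 10.38 with DMSO. Its withaferin A arrays lay below its celastrol arrays, at -0.23 ± 0.09 (adjusted p = 0.221), but the other probe set assigned to Dnaja1 alone gave -0.04. Relative to DMSO these probe sets gave -0.15 and -0.12 with withaferin A. With celastrol they disagreed in sign, at 0.08 for the one used and -0.09 for the other, so its place above 0 depends on the probe set. Dnajb1, the HSP40 most closely tied to the heat shock response, overlapped in all pairs of groups, at -0.03 ± 0.08 with celastrol and -0.06 ± 0.08 with withaferin A.

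Other J-domain proteins had values of similar size. Dnajc21, which helps ribosome maturation, was the highest member with celastrol, at 7.72, 7.73, 8.01 and 7.78, against 7.61, 7.63, 7.45 and 7.56 with DMSO. Its groups did not overlap, and the log2 change was 0.25 ± 0.09 (adjusted p = 0.303). Dnajc5, the cysteine string protein of synaptic vesicles, had 11.45, 11.37, 11.46 and 11.38 with celastrol, 11.45, 11.49, 11.50 and 11.36 with withaferin A, and 11.53, 11.53, 11.50 and 11.53 with DMSO. Both treated groups lay below DMSO, for withaferin A with nearly equal values at the nearest pair, at -0.11 ± 0.05 and -0.08 ± 0.05 (adjusted p = 0.431 and 0.458). Dnajc12, a J-protein of aromatic amino acid hydroxylases, averaged 8.54 ± 0.07 with celastrol and 8.66 ± 0.03 with DMSO (SD, n = 4 each), a change of -0.12 without overlap (adjusted p = 0.438). Dnajb6, a suppressor of protein aggregation, was called on a dim probe set, at 0.18 with withaferin A, while 4 probe sets assigned to Dnajb6 together with Gm4247 gave -0.14 to -0.18. Its direction is therefore unsettled. The spread within groups was widest for Hspb11 (pooled SD 0.22) and Dnajc28 (0.18), which limits what their values of 0.08 and 0.20 with celastrol can show. Dnajb8, Dnajc1, Dnajc24 and the HSP70-like Hspa12b lay between -0.16 and 0.17 with celastrol and between 0.03 and 0.11 with withaferin A.

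The mitochondrial folding chamber is encoded by Hspd1 (HSP60) and Hspe1 (HSP10), whose shared promoter is printed above. Hspe1 had 10.53, 10.49, 10.58 and 10.35 with withaferin A, 10.74, 10.89, 10.74 and 10.84 with celastrol, and 10.76, 10.69, 10.49 and 10.63 with DMSO. The withaferin A arrays lay below the celastrol arrays, and DMSO overlapped with both. Withaferin A versus celastrol gave -0.31 ± 0.07, the smallest adjusted p of the members in any comparison (0.0949), which passed the threshold when the prior was made robust and given an intensity trend (0.0380) and reached 0.270 without withaferin A replicate 4. Relative to DMSO, Hspe1 had 0.16 ± 0.07 with celastrol and -0.15 ± 0.07 with withaferin A (adjusted p = 0.416 and 0.300). Hspd1 had 10.14, 10.34, 10.22 and 10.35 with withaferin A, 10.36, 10.42, 10.41 and 10.41 with celastrol, and 10.39, 10.28, 10.31 and 10.39 with DMSO. Here too the withaferin A arrays were below the celastrol arrays, narrowly at the nearest pair, at -0.14 ± 0.06 (0.260). A second probe set of each gene gave -0.24 for Hspe1 and -0.29 for Hspd1. Hspa9, the mitochondrial HSP70, had -0.01 ± 0.05 and -0.03 ± 0.05 with celastrol and withaferin A, with 95% intervals from -0.11 to 0.09 and from -0.13 to 0.07 on the log2 scale. Dnajc15, a J-protein of the inner membrane import motor, had -0.02 and -0.18. The 8 members listed as mitochondrial were below 0 with withaferin A, beside 61.7% of the brighter 50% of genes. This count holds for that list only, and after a renewed quantile normalization Hspa9 had 0.06 with withaferin A. With celastrol 2 of the 8, Hspe1 and Hspd1, were above 0.

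**Figure D5:**
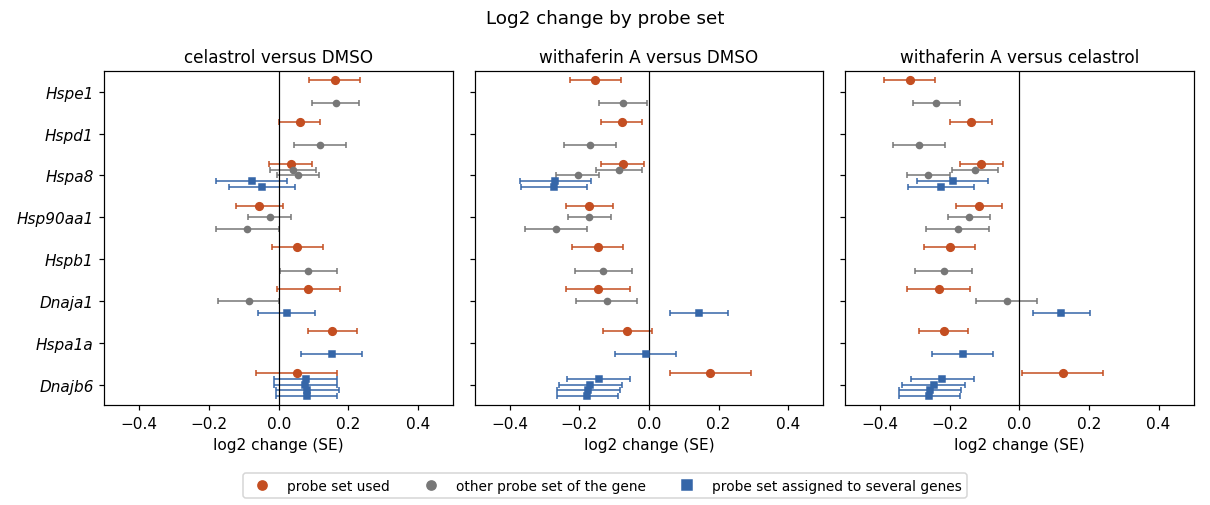
Log2 change of each probe set of 8 chaperone genes in the 3 comparisons, with bars of 1 SE; orange marks the probe set used, grey another probe set assigned to the gene alone, and blue squares a probe set assigned to several genes. The probe sets of Hspe1, Hspd1, Hspa8, Hsp90aa1 and Hspb1 lie on the same side of 0 for withaferin A, and those of Dnajb6 lie on both sides. Those assigned to Dnaja1 alone lie on both sides of 0 for celastrol versus DMSO.

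Chaperones such as Hspe1, Hspd1, Hspa8 and Hsp90aa1 have near-identical processed copies elsewhere in the mouse genome, and the annotation used here does not say which copy a probe set reads. Their values are therefore uncertain as measures of a single gene, and the agreement of sign between their probe sets does not remove this. Of the 88 members, 7 had several probe sets assigned to them alone.

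The CCT ring, which folds actin and tubulin, had small values of 1 sign with withaferin A: 8 of 8 tested subunits were below 0, between -0.14 (Cct2) and -0.02 (Cct7). Cct2 had 11.33, 11.26, 11.37 and 11.36 with withaferin A, 11.44, 11.38, 11.42 and 11.37 with celastrol, and 11.53, 11.45, 11.45 and 11.44 with DMSO. Both treated groups lay below the DMSO arrays, celastrol with nearly equal values at the nearest pair, at -0.14 ± 0.05 with withaferin A (adjusted p = 0.222) and -0.07 ± 0.05 with celastrol (0.698). Tcp1, the alpha subunit of the ring, had -0.14 ± 0.07 with withaferin A and 0.02 ± 0.07 with celastrol. With celastrol 3 of 8 subunits were above 0. Among the brighter 50% of genes, 61.7% were below 0 with withaferin A and 39.6% above 0 with celastrol.

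Among the small heat shock proteins, Cryab, alpha B-crystallin, had 11.02, 11.12, 11.09 and 11.10 with celastrol, 11.03, 11.16, 11.14 and 11.06 with withaferin A, and 11.24, 11.32, 11.26 and 11.19 with DMSO. The 4 arrays of each treated group were below the 4 DMSO arrays, at -0.17 ± 0.05 and -0.16 ± 0.05 (adjusted p = 0.195 and 0.209), and a renewed quantile normalization brought the second value to -0.07 (0.602). Oligodendrocytes are known to be rich in Cryab, and the mean of markers of these cells was lower as well. The mean of 14 tested oligodendrocyte markers, of 15 listed, taken in log2 units relative to the DMSO mean, ranged from -0.25 to -0.20 with celastrol, from -0.29 to -0.05 with withaferin A and from -0.05 to 0.03 with DMSO. With withaferin A 0 of the 14 fell and 9 of 14 were below 0. With celastrol 2 of the 14 fell, Opalin and Sox10, and 10 of 14 were below 0. Opalin had 7.74, 7.59, 7.48 and 7.40 with celastrol, against 8.58, 8.47, 8.45 and 8.73 with DMSO, without overlap (adjusted p = 0.0226). Their part in the Cryab value was not tested, and in whole tissue fewer cells of a type and less RNA per cell cannot be told apart. Hspb1, the heat-inducible HSP27, had 8.72, 8.56, 8.64 and 8.79 with withaferin A, 8.89, 8.94, 8.98 and 8.69 with celastrol, and 8.79, 8.87, 8.81 and 8.83 with DMSO. Withaferin A overlapped with both groups, at -0.20 ± 0.07 relative to celastrol (adjusted p = 0.207), and a second probe set gave -0.22. Hspb2, a small heat shock protein of muscle, was the highest member with withaferin A, at 6.77, 6.79, 6.58 and 7.10, against 6.56, 6.45, 6.73 and 6.43 with DMSO. These overlapped through 1 withaferin A array, and the log2 change was 0.27 ± 0.10 (adjusted p = 0.243).

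Groups that did not overlap were counted over all tested members. With celastrol, 2 members (2.5%) had the 4 arrays above the 4 DMSO arrays (Hspa1a and Dnajc21), beside 2.71% of all genes. The arrays lay below in 5 members (6.25%), Cct2, Dnajb14, Dnajc12, Dnajc5 and Cryab, beside 4.5%. With withaferin A, 0 members were above DMSO in this way, beside 2.91% of all genes, and 8 were below (Cct2, Dnajb14, Dnajb2, Dnajb4, Dnajc18, Dnajc5, Dnajc7 and Cryab), beside 4.69%. Withaferin A lay below celastrol without overlap in 11 members, or 13.8% of those tested, beside 5.35% of all genes. These were Cct2, Cct8, Tcp1, Hspa4, Hspa8, Chordc1, Dnaja1, Dnaja2, Dnajb4, Hspd1 and Hspe1. Above celastrol lay 1 member (Bag2), or 1.25%, beside 3.92%. Of the 80 members 67 were among the brighter 50% of genes, of which 53.0% were lower with withaferin A than with celastrol. The share without overlap among those bright genes was not counted. Of the 11, Hspa8, Chordc1, Dnaja1, Dnajb4, Hspd1 and Hspe1 are on the heat-inducible list, and Cct2, Cct8 and Tcp1 are subunits of the CCT ring.

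Chaperone genes outside the naming rule were taken from a list of 36, of which 34 were tested. They covered further heat shock factors, HSP90 cochaperones, prefoldin, mitochondrial exchange factors and proteases. With celastrol 1 of 34 rose and 0 fell, and 18 of 34 were below 0. With withaferin A 0 passed in either direction, and 19 were below 0. The gene that rose was Fkbp5, an HSP90-bound immunophilin induced by glucocorticoids. It had 8.61, 8.56, 8.83 and 8.92 with celastrol, 9.03, 7.59, 8.18 and 7.67 with withaferin A, and 7.39, 7.48, 7.58 and 7.65 with DMSO. The celastrol arrays lay above the DMSO arrays and withaferin A overlapped with both. The log2 change with celastrol was 1.21 ± 0.23 (adjusted p = 0.0369), which missed the threshold with each celastrol or DMSO array left out (0.0689 to 0.118), and with withaferin A it was 0.59 ± 0.23 (0.259). Its close relative among the members, Fkbp4, had 0.03 ± 0.08 with celastrol. Among the others with the smallest p, Grpel2, a mitochondrial exchange factor, Serpinh1, the collagen chaperone, and Pfdn2, a prefoldin subunit, had 0.14, 0.16 and 0.09 with celastrol. Vbp1, another prefoldin subunit, Sugt1, an HSP90 cochaperone, and Lonp1, a mitochondrial protease, had -0.32, -0.28 and 0.15 with withaferin A (adjusted p = 0.184, 0.169 and 0.256).

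Within groups, the heat-inducible members were compared with Hsph1 after the group mean was taken from each array, over 12 arrays and in 17 relations. Their median r was 0.38, against 0.07 over the 14952 other genes tested, and 6 of 17 (35.3%) had r above 0.5, against 13.3%. Without the 2 arrays farthest from the Hsph1 median, withaferin A replicate 1 and celastrol replicate 4, the median r was 0.17, against -0.01 over the other genes, and 3 of 17 (17.6%) had r above 0.5, against 9.24%. Part of the 17 had a negative r over the 12 arrays. It was -0.54 for Hspa1a, which had 0.23 without those 2 arrays. Dnajb1 had -0.32, Hspe1 -0.28, Bag3 -0.27, Hspb8 -0.24, Dnaja1 -0.10 and Dnajb4 -0.05. No relation of either sign passed Benjamini-Hochberg adjustment over the 17. Hsp90aa1 had r = 0.54 and rho = 0.68, with exact within-group permutation p-values of 0.00622 and 0.00977, adjusted 0.106 and 0.166. Fkbp4 had r = 0.88 and rho = 0.62, with permutation p-values of 0.0180 and 0.0940, adjusted 0.153 and 0.335. Without those 2 arrays r was 0.58 for Hsp90aa1, 0.39 for Fkbp4, -0.19 for Ahsa1 (0.66 with them) and -0.0048 for Hspa4l (0.63 with them). It was higher without them for Hspb1, at 0.83 and not 0.57, and for Stip1, at 0.73 and not 0.55. The relations with Fkbp4, Ahsa1 and Hspa4l thus leaned on those arrays. Both were chosen as the extremes of Hsph1, so leaving them out also narrows its range. All probes on an array share its scaling.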

How the data were processed

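Hypothalamic RNA was measured on 12 one-colour Affymetrix arrays, 4 per group. The deposited values are log2 signals of 35556 probe sets made by the authors with RMA, per the submitters' processing notes, with no version given. RMA had already scaled the arrays, so a change is relative to the other genes. The 21789 probe sets with 1 gene symbol in the platform annotation stood for 19938 genes; the one with the highest mean stood for its gene. Genes under the 25th percentile (5.81) were left out, and 14953 were tested. Groups were compared with limma 3.58.1 (R 4.3.3; lmFit and eBayes, 12 arrays, no covariate), two-sided, with Benjamini-Hochberg adjustment over all tested genes and a threshold of 0.05; the residual degrees of freedom were 9 and the prior 4.44. Precision is set by the number of arrays. The steps were tested on simulated data. Labels call the arrays biological replicates.

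Named were a fixed list of members, the 5 highest and 5 lowest members of each comparison, the 5 with the widest spread within groups, any member past the threshold, and the 4 listed genes outside the naming rule with the smallest p in each comparison with DMSO; further genes were named where counts are spelled out. The members, lists and tests were chosen with earlier results of these data known, so a list's direction is no independent evidence. Replicate numbers did not pair the arrays, and the alternatives tried are given with their effect after the results. Promoter sequences came from RefSeq (GRCm38.p6) and were looked up by symbol, which found 72 of the 88 members. The 88 members were matched to RefSeq genes by gene identifier. Plots were drawn with matplotlib 3.10.9.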

Additional observations from a re-analysis of the deposited data

Results flagged for a closer look

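In 41 genes with 3 groups of 4 arrays each, 123 groups were searched for an array that stands apart from the other 3 by Dixon's test, which chance flags in about 1 of 20 groups; 5 groups held one. Dnajc1 had 7.73 on withaferin A replicate 1, with the others between 7.43 and 7.47. Dnajb8 had 5.60 on celastrol replicate 4, with the others between 5.74 and 5.76. On DMSO arrays, Cct2 had 11.53 on replicate 1, with the others between 11.44 and 11.45, Dnajc5 had 11.50 on replicate 3, with the others at 11.53, and Dnajc28 had 7.09 on replicate 3, with the others between 7.39 and 7.43.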

How the results depend on the processing

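Withaferin A versus DMSO and celastrol versus DMSO gave 0 chaperone genes past the threshold under every alternative run. Withaferin A versus celastrol gave 1 chaperone gene, Hspe1, with a robust prior that follows intensity and 1 at an adjusted p of 0.10, and 0 otherwise. Reversed calls were 0 for the 34 named members. No member passed in the main fits, so this 0 could hardly have come out otherwise and does not show stable directions. The sign of uncalled values changed in 24 of 741 alternative values for celastrol versus DMSO, on 11 of the 34 members. For withaferin A versus DMSO it changed in 24 of 741, on 14 members. Between withaferin A and celastrol it changed in 10 of 741, on 5 members. The median log2 change of chaperone genes with withaferin A was -0.013 after a renewed quantile normalization and -0.091 after centring on array medians, and between withaferin A and celastrol -0.016 and -0.071. With celastrol the sign of the members' median depended on single arrays. Without each array in turn it lay between -0.013 (without DMSO replicate 3) and 0.022. Without celastrol replicate 1 it was below 0 as well, at -0.0058. With withaferin A the members' median lay between -0.050 and -0.037, and between the compounds between -0.054 and -0.027.

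Counts over all genes varied more. Celastrol versus DMSO gave 115 genes, 60 with no filter, 195 with that prior, 219 with array weights, 182 on 8 arrays, 212 at an adjusted p of 0.10, and 6 to 207 without each array, the lowest without DMSO replicate 2 and the highest without withaferin A replicate 1. Withaferin A versus DMSO gave 0 genes, 8 with that prior, 21 with array weights, 8 at 0.10, and 0 to 172 (without DMSO replicate 3) without each array. Withaferin A versus celastrol gave 7 genes, 11 with no filter, 13 with a filter at the 50th percentile, 12 with median centring, 29 with that prior, 19 with array weights, 0 on 8 arrays, 77 at 0.10, and 0 to 56 (without withaferin A replicate 1) without each array. The causes of these shifts were not tested.

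Of the listed genes outside the naming rule, 0 passed with celastrol with no filter, with that prior and with the replicate block, and 0 to 1 without each array; between the compounds 0 to 1 passed, the 1 being Fkbp5 at -0.92 (adjusted p = 0.0154) without withaferin A replicate 1. Among relations with Hsph1, 0 to 1 passed without each array.

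Same-numbered arrays correlated between -0.28 and 0.12 after the group means were taken off, so the numbers do not pair the arrays. With the replicate number as a block, celastrol versus DMSO gave 54 genes, withaferin A versus DMSO 0 and withaferin A versus celastrol 7, with 0 chaperone genes in each.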
